A study of Sus scrofa domesticus with 30 samples.

Results

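Ion, calcium and water transport genes were examined in the endometrium, the lining of the uterus, of 15 pregnant gilts (young female pigs). The members were a list of 52 genes for ion channels, exchangers, pumps, water channels and their partners, read out by gene symbol from a table of 28224 gene models. A row was found for 50 of them, and CA2 and SLC11A2 were not analysed here. Genes above the floor value of 1 in at least 7 libraries were tested, which kept 48 members and 16819 genes in all. At that limit ATP12A, above the floor in 7 libraries, was tested, while SLC26A9, above it in 6, and CLCA2, above it in 2, were not.

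The animals were crossbred gilts of Landrace, Yorkshire and Duroc descent, and each gave 1 poly(A) mRNA library. In 7 gilts the immunocrit (iCrit) of blood drawn on the day of birth had been low, and in 8 it had been high. The immunocrit is a blood measure of absorbed immunoglobulin and stands for the amount of colostrum that a newborn piglet took in. All piglets received penicillin and iron dextran by injection at birth, all were raised on the same standard rations and later inseminated artificially, and tissue from the middle of the uterine horn was taken on pregnancy day 13. The study asked whether the uterus of the grown gilt differs with colostrum intake at birth. Each library came from a different animal, and litters are not in the labels. A further low iCrit gilt had been left out by the authors for not being pregnant. Expression is given as the authors' normalized value, which has no unit beyond its own scale and is not corrected for gene length, so levels are compared between animals and not between genes. The estimated depth was 23.7 to 63.5 M reads per library (M, 1e6). All 9 genes chosen as marks of endometrium were above the filter, among them ESR1 (3805 to 11741) and PGR (189 to 480), the estrogen and progesterone receptors. Of 15 epithelial markers 14 passed, with KRT7 at the floor in every library. The values come from whole tissue, where fewer cells of a type and less RNA per cell cannot be told apart.

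Epithelia move water by moving salt. Sodium enters through apical channels and leaves through the sodium pump, chloride and bicarbonate pass through channels and exchangers, and water follows through aquaporins. Calcium crosses an epithelium by entry through TRPV6, carriage by the small protein S100G (calbindin-D9k) and exit through pumps and sodium-calcium exchangers. In the pig, the conceptuses elongate and release estrogen before they attach, and the calcium content of uterine fluid is known to rise in that period.

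No transport gene differed between low and high iCrit endometrium past the test's threshold. limma (low minus high iCrit, Benjamini-Hochberg adjusted over all genes) called 0 of 48 members, beside 0 of 16819 genes in all (0% called), and the lowest adjusted p among the members was 0.672. At an unadjusted p under 0.05, which 7.13% of all genes passed, limma had 3 members higher in low iCrit (6.25%), where 2.71% of all genes tested were higher, and 0 members lower, where 4.43% of all genes were lower. That split of all genes, 455 higher and 745 lower, was 600.0 and 603 with quantile normalization and 569 and 603 with median centring, while the member counts were 3 and 0 under both. Leaving out low iCrit replicate 5 left 1 member, and leaving out low iCrit replicate 7 or high iCrit replicate 2 gave 5. The groups overlapped in all 48 members (0 members without overlap, beside 0.0713% of all genes tested). The median log2 difference of the members was 0.10 (0.03 without high iCrit replicate 7 and 0.17 without high iCrit replicate 6), and that of all genes tested was -0.01. A log2 difference above 0 was found in 32 members (66.7%) and one below 0 in 16, beside 48.3% of all genes tested above 0. The member split was 25 and 23 without low iCrit replicate 6 and 28 and 20 with quality weights per library. The other genes of ion and water transport were 143 further symbols of the same families and their regulators. They gave 133 tested rows, with CLIC1 in more than 1 row. Of these rows 0 passed, with 7 higher and 4 lower at an unadjusted p under 0.05 by limma. Their median log2 difference was 0.03.

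**Figure D1:**
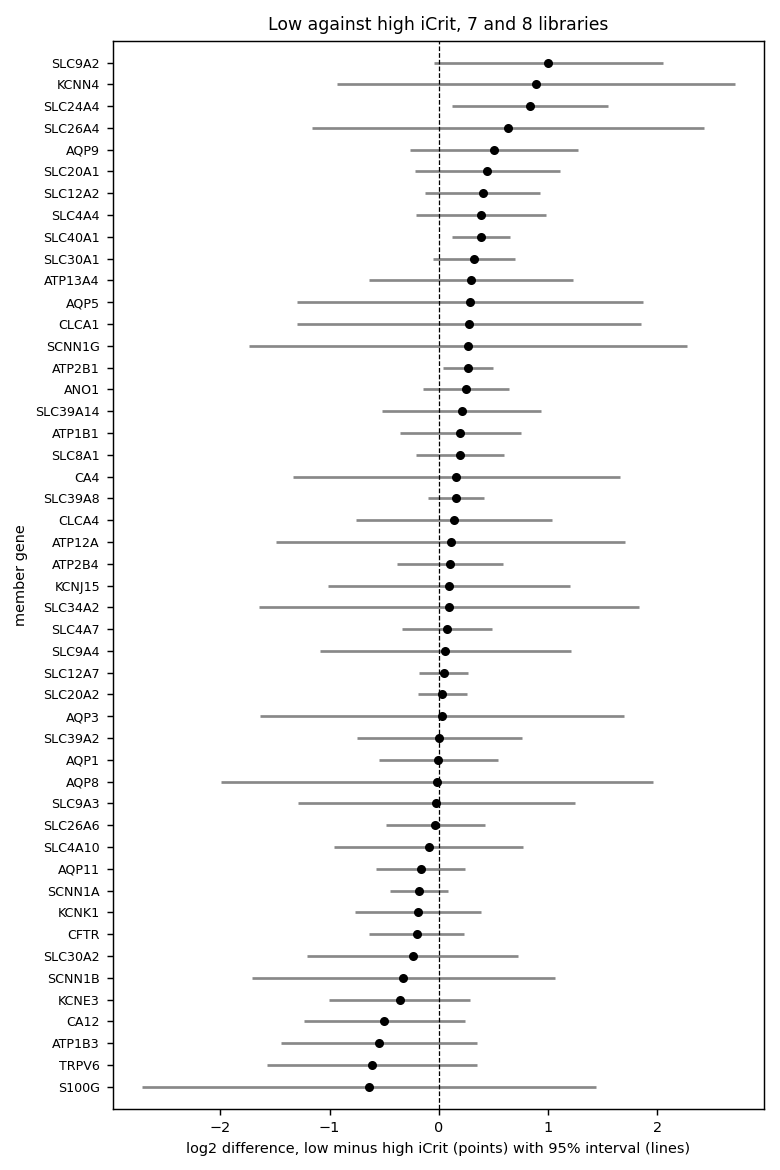
Log2 difference between low and high iCrit (low minus high, points) with its 95% interval (lines) for the 48 members tested, from 7 and 8 libraries. The intervals of SLC40A1, SLC24A4 and ATP2B1 lie above 0, and those of S100G, SCNN1G and AQP8 are several log2 units wide.

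The members with the smallest p export iron or calcium from cells. SLC40A1 encodes ferroportin, the known route of iron out of cells (chromosome 15, 94140635 to 94161793). Its value ran from 1813 over a median of 2229.6 to 2487 in low iCrit gilts, and from 1226 over 1655 to 2138 in high iCrit gilts. Low iCrit replicates 1, 2, 4, 5 and 6 stood above every high iCrit gilt, and replicates 3 and 7 lay within the high iCrit range. The log2 difference was 0.39 ± 0.12 (SE, n = 7 and 8, 95% interval 0.12 to 0.65, limma adjusted p = 0.672), a 1.31-fold higher value in low iCrit. Macrophages are known to carry much ferroportin, and the summed value of 8 macrophage markers was 4893 to 11814 in low and 4414 to 14281 in high iCrit gilts. The part of these cells in the SLC40A1 values was not tested.

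SLC24A4, a sodium-calcium exchanger that also carries potassium (chromosome 7, 113836207 to 114014952), had values of 16834 to 48034 with a median of 22890.2 in low iCrit gilts. In high iCrit gilts they were 4800.3 to 30361 with a median of 14946. Low iCrit replicates 2 and 5 were above all others, and high iCrit replicate 7 was far below all others. The log2 difference was 0.84 ± 0.34 (SE, 95% interval 0.12 to 1.55, limma adjusted p = 0.672). ATP2B1, a calcium pump of the plasma membrane (chromosome 5, 92935688 to 93061406), ran from 4685 over 5954 to 6777 in low and from 3786 over 4834 to 5473 in high iCrit gilts. Of the low iCrit gilts, replicates 1, 2, 3, 5 and 7 were above every high iCrit gilt and replicates 4 and 6 were within their range. The log2 difference was 0.27 ± 0.11 (SE, 95% interval 0.04 to 0.50, limma adjusted p = 0.672). Of 11 stromal markers, 9 also had a log2 difference above 0, with a median of 0.27, and 3 of them were higher in low iCrit at an unadjusted p under 0.05 by limma. Their summed value was 200510.3 to 611402 in low and 204299.7 to 306131 in high iCrit gilts. The value of 611402 was that of low iCrit replicate 6, and the other low iCrit gilts were at 321616 or less. Of the stromal markers 0 passed the adjusted test, and their part in the values of these 3 members was not tested.

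**Figure D2:**
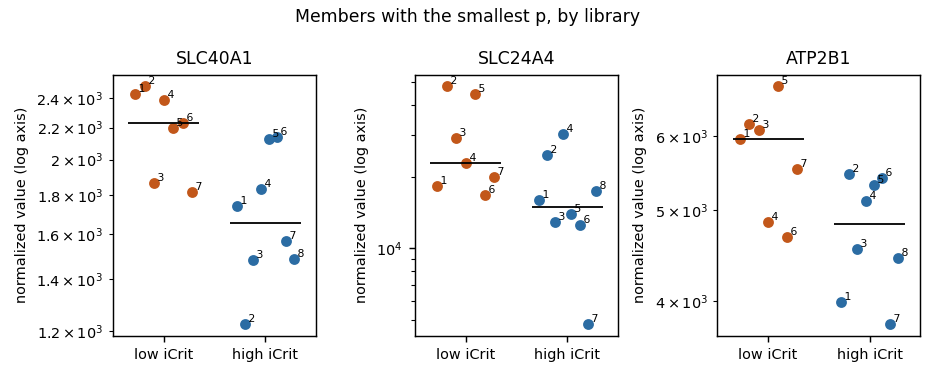
Normalized value (log axis) of the 3 members with the smallest p in each library, with replicate numbers beside the points and a line at the group median. In all 3 the low iCrit median is the higher, and the groups overlap.

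The other members of calcium transport varied far more between animals than between groups. TRPV6, the calcium entry channel (chromosome 18, 7332253 to 7348383), had values of 7243 to 103924 in low and 36224 to 114988 in high iCrit gilts, with medians of 55254 and 78181. Low iCrit replicate 2 stood alone at the bottom, below the next lowest library by a wide gap. The log2 difference was -0.61 ± 0.45 (SE, 95% interval -1.58 to 0.35), and it was -0.17 without that animal.

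S100G (chromosome X, 13107611 to 13114213) had the largest spread of all members, from 46.3 in low iCrit replicate 2 to 15221 in high iCrit replicate 7, a 329-fold range. The next lowest values were 276 in high iCrit replicate 8 and 369 in low iCrit replicate 5, and the next highest were 7768 in low iCrit replicate 6, 4780.3 in high iCrit replicate 5 and 4581 in low iCrit replicate 1. Both ends of the range thus held animals of both groups, and the group medians were 1855 and 1813. The log2 difference was -0.64 ± 0.98 (SE, 95% interval -2.72 to 1.44), and without low iCrit replicate 2 it was 0.13. The SD of its log2 value over the 15 libraries, 2.08, was above that of 99.4% of all genes tested. TRPV6 in high iCrit replicate 8 was at its maximum, 114988, while S100G in that library was at 276, so the channel and the carrier did not follow each other there.

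AKR1B1, which reduces sugars and makes prostaglandin F, was low in the same 3 animals as S100G. It stood at 2445, 2841 and 3912 in low iCrit replicate 2, high iCrit replicate 8 and low iCrit replicate 5, and at 14276 or more elsewhere. Its highest value, 151356, was in high iCrit replicate 7, where S100G was highest too. AKR1B1 was singled out after its values were seen, and no test was made. The summed value of 7 neutrophil markers was lowest in the same 3 animals as well. It was 952 in low iCrit replicate 2, 6706 in low iCrit replicate 5, 14501 in high iCrit replicate 8 and 22759 to 75697 elsewhere. Nearly all of that sum came from S100A9, S100A8 and S100A12 (means of 29690, 6411 and 3173), where CSF3R, the next, had a mean of 157. CSF3R, LTF and MMP9 were each lowest in another animal. The part of neutrophils in the S100G values was not tested. Among 12106 named genes with a mean value of at least 100, those ranked most like S100G over the 15 libraries were SH3BGRL, ABLIM1 and MELTF (Spearman rho 0.96, 0.95 and 0.95), a ranking chosen after the values were seen and given without a test. ATP2B4, another calcium pump, and SLC8A1, a sodium-calcium exchanger, had log2 differences of 0.10 ± 0.23 and 0.20 ± 0.19 (SE).

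The epithelial sodium channel showed unequal spread among its subunits. SCNN1A, the alpha subunit (chromosome 5, 64287529 to 64312917), was among the least variable members, from 5265 to 10916 over all 15 libraries, an SD of 0.25 on the log2 scale. SCNN1B and SCNN1G, the beta and gamma subunits, lie beside each other on chromosome 3 (22832259 to 22902592 and 22977940 to 23013384) and were far more variable, with SDs of 1.38 and 1.98. SCNN1G was at 7855 and 7668 in low iCrit replicates 1 and 6 and at 2405 and 4404 in high iCrit replicates 4 and 6. It was 876 in high iCrit replicate 7 and 173 to 419.7 in the other 10 libraries. SCNN1B was highest in the same 4 libraries, at 7226, 6008, 4002 and 5899, followed by 3783 in high iCrit replicate 7, with the other libraries at 309 to 1414. The 4 highest values were thus split evenly over the groups, with 2 animals in each. For SCNN1B, high iCrit replicate 7 lay close below these 4 and far above the rest. The log2 differences between groups were -0.33 ± 0.66 for SCNN1B and 0.27 ± 0.95 for SCNN1G (SE). SCNN1A had a log2 difference of -0.18 ± 0.13 (SE, 95% interval -0.45 to 0.08).

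**Figure D3:**
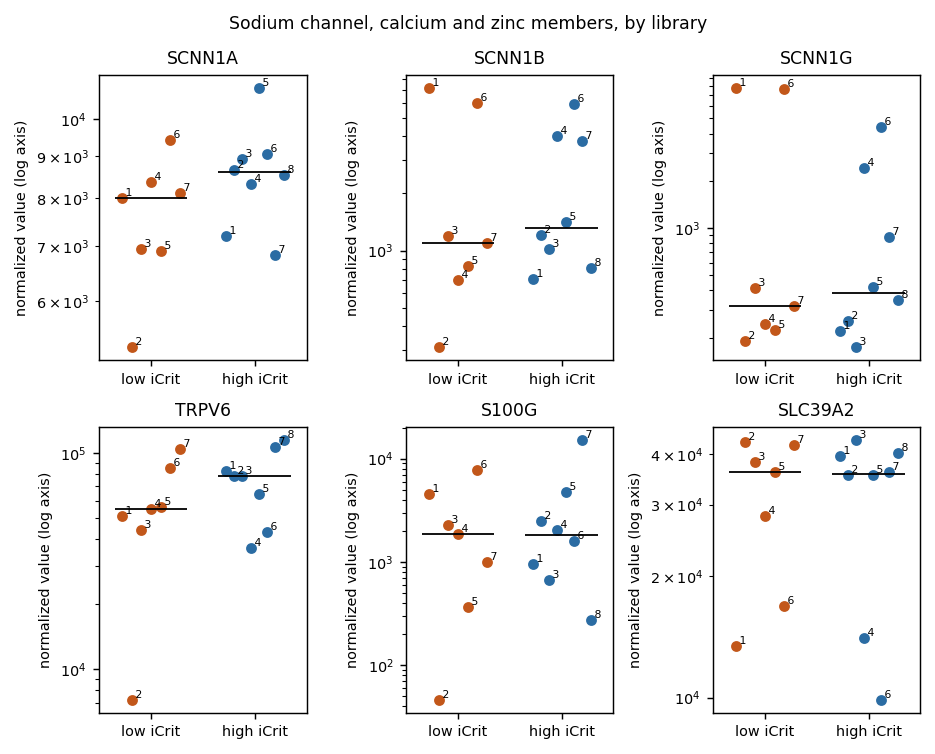
Normalized value (log axis, a scale of its own in each panel) of 6 members in each library, with replicate numbers beside the points and a line at the group median. Low iCrit replicates 1 and 6 and high iCrit replicates 4 and 6 are highest for SCNN1B and SCNN1G and lowest for SLC39A2, while low iCrit replicate 2 is lowest for TRPV6 and S100G.

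The same 4 animals were the extreme ones in several other members. They held the 4 highest values of ATP1B3, a beta subunit of the sodium pump, at 20278, 16261, 16834 and 22570.1 (low iCrit replicates 1 and 6, high iCrit replicates 4 and 6), with 14339 as the next value. ATP1B1, another beta subunit, ran from 799 to 3709 over all libraries, with a log2 difference of 0.20 ± 0.26 (SE), which was 0.02 without high iCrit replicate 7. They also held the 4 highest of KCNJ15, an inwardly rectifying potassium channel, at 1061, 614, 434 and 579, with 392 next. SLC34A2, a phosphate transporter of the apical membrane, was at 26.5, 60.6, 65.7 and 106 there and at 19.98 or less elsewhere. In the other direction, SLC39A2, a zinc importer, had its 4 lowest values there, at 13388, 16821, 14009 and 9874, against 28053 to 43406 in the other libraries.

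SULT1E1, the estrogen sulfotransferase, was also highest in these 4 animals, at 7751, 3113, 3497 and 5003 against 244 to 1446 elsewhere. It was singled out with its values already seen, and no test was made. In all, 4 of the 47 other members tested had the same 4 highest libraries as SCNN1G (8.51%, beside 2.78% of all genes tested) and 1 had them as its 4 lowest (2.13%, beside 1.84%). These counts describe an order seen in the data and carry no test, and SLC34A2 is among the 4 by a margin of few reads. The epithelial markers averaged 0.21, 0.12, 0.29 and 0.32 above their mean over the 15 libraries in these animals on the log2 scale. High iCrit replicate 7, not among these animals, was at 0.24, above both of the low iCrit replicates. The part of the epithelial markers in the values was not tested.

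AQP3, which passes water and glycerol, was highest at 7716 in high iCrit replicate 4 and 4709 in high iCrit replicate 6, next at 1869 in low iCrit replicate 6, and lowest at 108 in high iCrit replicate 7. AQP5, a water channel of secretory epithelia, stayed low, between the floor and 31.7, with its highest values in high iCrit replicate 6 and low iCrit replicates 6 and 1. AQP8 ran from the floor to 121.9 in low iCrit replicate 7, and AQP9 from the floor to 9.56. AQP1, the water channel of small vessels, and AQP11 were steadier, at 1641 to 5822 and 516 to 1223. The log2 differences of the 6 aquaporins lay between -0.17 and 0.50, with intervals that included 0. For AQP3 it was 0.03 with a 95% interval of -1.64 to 1.69, so a difference of several fold in either direction lies within its error.

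Members of sodium-proton exchange and bicarbonate transport were partly shaped by a few animals. SLC9A2 and SLC9A4, sodium-proton exchangers of apical and basolateral membranes, are neighbours on chromosome 3 (51535798 to 51623003 and 51686001 to 51749996). SLC9A2 ran from 119.9 over 308 to 2238 in low and from 126 over 186 to 425 in high iCrit gilts. Low iCrit replicates 6 and 1, at 2238 and 1061, were above all others, low iCrit replicate 2 was just below the high iCrit range, and the other low iCrit gilts lay within it. Its log2 difference, 1.004 ± 0.50 (SE, 95% interval -0.04 to 2.05, limma adjusted p = 0.707), was the largest of the members and was 0.60 without low iCrit replicate 6. SLC9A4 was also lowest in low iCrit replicate 2, at 69.4, and reached 1432 and 1519.6 in low iCrit replicates 1 and 6 and 1564 in high iCrit replicate 6. SLC4A4, the sodium bicarbonate cotransporter, was 379 to 1767 in low and 446 to 1155 in high iCrit gilts, and its log2 difference was 0.39 ± 0.28 (SE). CA12, a carbonic anhydrase on the cell surface, was 397 to 2478 and 693 to 2502, a log2 difference of -0.50 ± 0.35 (SE). SLC9A3, an apical sodium-proton exchanger, stayed between 1.29 and 65.1, and CA4, a membrane-bound carbonic anhydrase, between 2.19 and 150.2. SLC4A7 and SLC4A10, bicarbonate transporters coupled to sodium, ran over 922 to 2269.8 and from the floor to 9.52. Of the 9 bicarbonate and proton members tested, 6 had a log2 difference above 0 and 3 below it, and 0 passed the limma test. ATP12A, a proton pump outside the stomach that exchanges potassium, was at 62.4 in high iCrit replicate 8 and at 17.5 or less elsewhere.

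SLC26A9, an anion transporter that was not tested, was likewise highest in high iCrit replicate 8, at 23.2, and at 3.19 or less in all others. That library also had the highest mean of the trophoblast markers, 2.29 above the average of the 15 libraries on the log2 scale, where the others lay between -1.08 and 0.85. HAND1, IFNG, CYP17A1, GATA3 and TFAP2C were highest there, and CYP19A3, ELF5 and KRT18 were highest in other libraries. The summed value of the markers, where KRT18 had a mean of 8487, was 10680 in that library. It was higher in low iCrit replicate 1 (11818) and high iCrit replicates 4 and 6 (13349 and 12222). The part of conceptus cells in the ATP12A and SLC26A9 values was not tested.

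The chloride members ranged from steady to highly variable. CFTR, the chloride and bicarbonate channel mutated in cystic fibrosis, was 751 to 1443 in low and 665 to 1847 in high iCrit gilts, and its log2 difference was -0.20 ± 0.20 (SE). ANO1, a chloride channel opened by calcium, was 178 to 328 and 152 to 299, with a log2 difference of 0.25 ± 0.19 (SE). SLC12A2, which loads cells with sodium, potassium and chloride, was 23675 to 56846 and 18689 to 50679.6, a log2 difference of 0.40 ± 0.25 (SE, 95% interval -0.12 to 0.93). SLC26A4 (pendrin), which exchanges chloride for bicarbonate or iodide, had the largest spread of this role, from 26.1 in high iCrit replicate 6 to 1643 in low iCrit replicate 7. Its 3 lowest values came from high iCrit replicates 6 and 4 and low iCrit replicate 2. CLCA1 and CLCA4, regulators of calcium-activated chloride flow, were low, between the floor and 88.4 and between 12.1 and 105. SLC26A6, an anion exchanger, ran over 41.1 to 108.8, and SLC12A7, which carries potassium and chloride out of cells, over 5212 to 7953. Of the 8 chloride members tested, 6 had a log2 difference above 0 and 2 below it.

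Among potassium channels, KCNN4, which opens on a rise in calcium, was at 1283 in low iCrit replicate 6 and 378.5 in low iCrit replicate 1, and at 8.92 to 141 in the others. Its log2 difference of 0.89 had an SE of 0.86 and was 0.19 without low iCrit replicate 6. KCNE3, which holds potassium channels open, was 206 to 986 in low and 383 to 916 in high iCrit gilts, with -0.36 ± 0.31 (SE) as its log2 difference. KCNK1, a potassium channel of the tandem-pore family, ran over 1689.6 to 7568. Of the phosphate importers, SLC20A1 was 3420.2 to 16792 and 4036 to 10396, with 0.44 ± 0.31 (SE) as its log2 difference, and SLC20A2 was among the steadiest members, with a log2 difference of 0.03 ± 0.10.

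The zinc members did not separate the groups either. SLC30A1, the zinc exporter of the plasma membrane, was 459 to 566 in low and 262 to 609 in high iCrit gilts, and the groups differed by 0.32 ± 0.18 on the log2 scale (SE, 95% interval -0.05 to 0.70). The low iCrit values were the more closely packed, high iCrit replicates 1, 3, 4 and 7 lay below all of them, and high iCrit replicate 2 lay above. SLC30A2, which moves zinc into vesicles, had the largest spread of this role, from 1049 in low iCrit replicate 1 to 9628 in low iCrit replicate 2, with a log2 difference of -0.24 ± 0.46 (SE). SLC39A2 differed by 0.01 ± 0.36 and SLC39A14, an importer of zinc and iron, by 0.21 ± 0.34 (SE), or 0.04 without low iCrit replicate 2. SLC39A8, another importer of metals, was steady at 492.8 to 873 and differed by 0.15 ± 0.12 (SE). ATP13A4, a pump of the P-type family, ran from 589 in low iCrit replicate 2 to 6258 in low iCrit replicate 1, with a log2 difference of 0.30 ± 0.44 (SE), which moved to 0.08 when the highest of these animals was left out and to 0.65 when the lowest was.

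**Figure D4:**
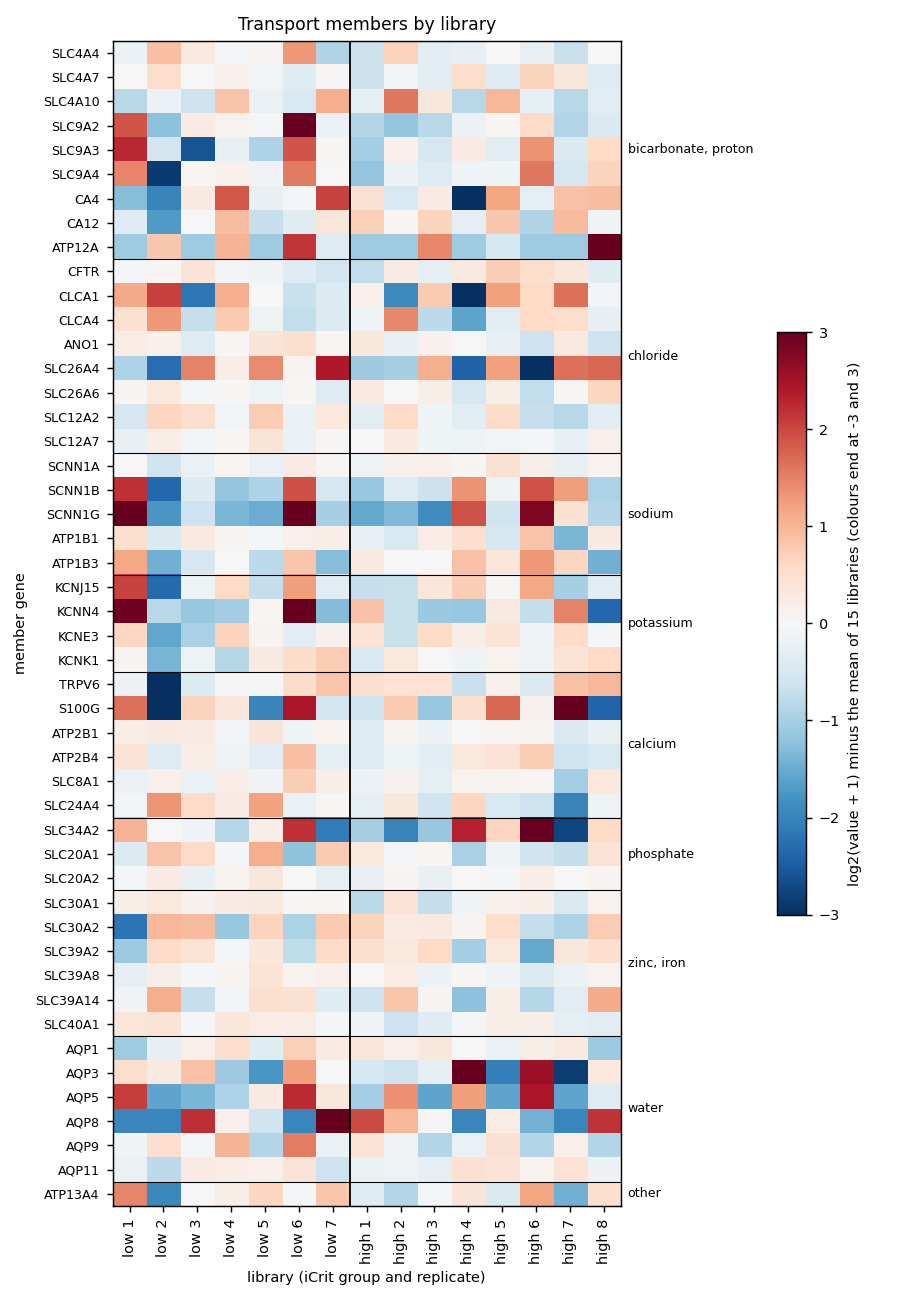
Log2(value + 1) of each tested member minus its mean over the 15 libraries (colour, ending at -3 and 3), for 7 low and 8 high iCrit libraries, with members in rows by role. Strong colours sit in single columns, such as low iCrit replicates 1, 2 and 6, and not in the blocks of either group.

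Spread between animals was wide for many members. The SD of log2(value + 1) over the 15 libraries had a median of 0.74 over the 48 members and 0.40 over all genes tested, and 16 members had an SD above 1. The smallest of these 16, 1.08 for KCNJ15, was above the SD of 93.3% of all genes tested. Among the 16, AQP8, SLC34A2, ATP12A, AQP5, CLCA1, CA4 and SLC9A3 had mean values under 100. Low iCrit replicate 2 held the lowest value of 12 and high iCrit replicate 7 of 8 of the 41 members that were above the floor in every library. The same tally was not made over all genes, so it does not show whether these low values are particular to the members. Low iCrit replicate 2 also had the lowest mean of the epithelial markers, 0.52 (-0.515) below their average on the log2 scale, where the other libraries were at -0.18 to 0.32, and high iCrit replicate 7, which had the fewest estimated reads, was at 0.24. On the same scale low iCrit replicate 2 was at -2.66 for the neutrophil, 0.60 for the macrophage and 0.67 for the gland markers. The part of cell content or depth in these low values was not tested. Between the groups, 13 of the 14 epithelial markers tested had a log2 difference below 0, with a median of -0.16, and their summed value was 124469 to 206210.2 in low and 154287 to 218313 in high iCrit gilts. The endothelial markers had 7 of 8 above 0 (median 0.11), the neutrophil markers 6 of 7 below 0 (median -0.50) and the erythroid markers 6 of 7 below 0 (median -0.61), and limma called 0 genes of any of these lists, with 1 epithelial and 1 erythroid marker lower and 1 endothelial marker higher at an unadjusted p under 0.05.

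**Figure D5:**
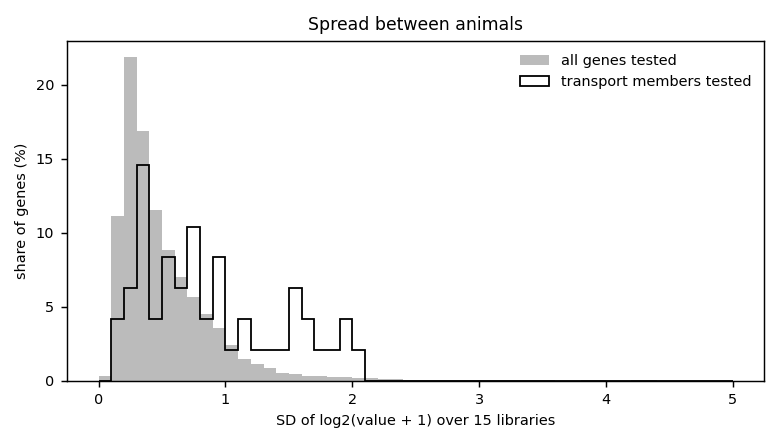
Share of genes (%) by the SD of log2(value + 1) over the 15 libraries, for all 16819 genes tested (grey) and for the 48 members tested (line). The members lie further to the right, with medians of 0.74 and 0.40, as a description without a test.

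Pairs of transporters known to act in 1 cell or along 1 path were compared across animals on the log2 scale, and 0 of the 12 pairs tested passed after Benjamini-Hochberg adjustment over the pairs. TRPV6 and ATP2B1 ran in opposite directions (Pearson r = -0.55, permutation p = 0.0304, adjusted 0.122, Spearman rho = -0.60, permutation p = 0.0206, n = 15). Without the 2 animals farthest from the TRPV6 median r was -0.65, within the low iCrit group it was -0.41 (exact permutation p = 0.385, n = 7) and within the high iCrit group -0.66 (exact permutation p = 0.0829, n = 8). TRPV6 and S100G had r = 0.54 (permutation p = 0.0501, adjusted 0.150, rho = 0.14, permutation p = 0.61). This rested on low iCrit replicate 2, since r was -0.055 without that animal alone. Without the 2 animals farthest from the TRPV6 median, of which it is 1, r was -0.05. Within groups r was 0.77 in low iCrit, with replicate 2 included (exact permutation p = 0.0710, n = 7), and -0.09 in high iCrit (exact permutation p = 0.831, n = 8).

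Libraries fell into separate clusters for SCNN1B, SCNN1G and CLCA1, with a gap of more than 1 on the log2 scale and at least 3 libraries on each side, so relations were taken within the larger cluster. SCNN1A and SCNN1B had r = 0.78 over the 10 libraries with low SCNN1B (permutation p = 0.0118, adjusted 0.0709, rho = 0.55, permutation p = 0.106), and 0.12 without the 2 libraries farthest from the SCNN1A median, so the relation rested on those. SCNN1A and SCNN1G had r = 0.09 over 11 libraries (permutation p = 0.773, rho = 0.05, permutation p = 0.881) and -0.50 without the farthest 2. CLCA1 and CLCA4, neighbours on chromosome 4 (129621259 to 129655385 and 129562573 to 129593123), had r = 0.72 over 12 libraries (permutation p = 0.00889, adjusted 0.0709, rho = 0.59, permutation p = 0.0460). It was 0.49 without the farthest 2, and within groups it was 0.99 in low iCrit (exact permutation p = 0.00278, n = 6) and 0.27 in high iCrit (exact permutation p = 0.585, n = 6). The 3 libraries outside the cluster were low iCrit replicate 3 and high iCrit replicates 2 and 4. CLCA1 was at 3.87, 4.76 and the floor there, and CLCA4 at 23.2, 104.7 and 12.1. High iCrit replicate 2 thus had the highest CLCA4 beside a low CLCA1, and the relation over all 15 libraries was not taken. CFTR and ANO1 had r = -0.46 (permutation p = 0.0862, adjusted 0.207, rho = -0.49, permutation p = 0.0640) and -0.36 without the 2 animals farthest from the CFTR median. Without low iCrit replicate 2 and high iCrit replicates 7 and 8, which earlier results had put apart, r was -0.78 and passed (adjusted permutation p = 0.039). A further 5 pairs had r between -0.02 and 0.40 and adjusted permutation p of 0.244 or more.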

How the data were processed

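Endometrial poly(A) RNA of 15 gilts (RNA integrity number of at least 7.5) was sequenced as paired-end 50 bp reads, per the labels' protocols. The authors deposited normalized values per gene, treated here as signal (linear, floor of 1, scaled between libraries). Aligner, counter, build and scaling were not given in the sources used here. Coordinates equalled the RefSeq Sscrofa11.1 gene table for 49 of 50 members (not KCNE3) and are given in that build. Low values were multiples of a step per library (92.3% to 94.2% whole within 0.05 reads, taking the commonest step as 2 reads of a pair), which gave the depth estimate. Since not all were whole, no count model was used. Animals were numbered within a group in record order, which only names them, and 0 sample columns were unmapped.

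Values were taken as log2(value + 1), which understates changes of low genes, and tested with limma 3.58.1 (R 4.3.3, intensity trend, no covariates, as the labels give no batch or litter). Errors in the text are SE of that fit. Of 15 listed pairs, 3 had a partner that was not tested. A further pair entered the adjustment and is not reported here. Pairs used 100000 permutations, two-sided, or all permutations within groups. Python 3.11.15, numpy 2.4.6 and pandas 2.3.3 made the tables. The tests were checked on simulated data. The gap that separates clusters was set after the values were seen. Alternatives changed the pseudocount, the filter, the scaling, the variance model and the libraries. In each role the members with the largest SD and the smallest p were named, with the 4 smallest p in each direction and the genes of the pairs, and others were chosen after their values were seen. The members and lists were chosen with earlier results of these data known. Small-RNA libraries were not used here.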

Additional observations from a re-analysis of the deposited data

Results flagged for a closer look

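Each of the 32 tested members that the naming rule took was checked for a library far from the rest of its group, which made 64 groups, and chance alone would flag about 5% of them. There were 2 such values. TRPV6 in low iCrit replicate 2 was 7242.69, where the other low iCrit gilts were at 43944 to 103924. ATP1B3 in high iCrit replicate 8 was 3329.54, where the other high iCrit gilts were at 9139 to 22570.1.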

How the results depend on the processing

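limma called 0 genes and 0 members under all alternatives run: 2 pseudocounts, 2 filters, 2 scalings, 2 variance models, 3 libraries left out together (low iCrit replicate 2, high iCrit replicates 7 and 8) and each library left out in turn. The members' median was 0.034 to 0.172 with 1 library left out. For the directions and pair calls that changed below, the cause was not tested. With a pseudocount of 10 the log2 difference was -0.08 for ATP12A, -0.091 for SLC34A2 and 0.149 for AQP8, and r was 0.059 for AQP5 and CFTR. AQP8 was at 0.047 with quantile normalization and 0.003 with median centring. With quality weights per library, which gave 883 genes higher and 1102 lower at an unadjusted p under 0.05, it was 0.48 for AQP8, -0.444 for ATP12A, -0.228 for SLC34A2, -0.001 for AQP3, -0.154 for SLC39A14 and -0.142 for CLCA1. Without the 3 libraries it was 0.197 for S100G, -0.243 for SLC34A2, 0.34 for AQP8, 0.046 for TRPV6, 0.034 for SCNN1B and -0.43 for AQP3. Their absence put r at -0.08 for TRPV6 and S100G, -0.122 for S100G and STC1 (a secreted regulator of calcium and phosphate), -0.003 for AQP3 and SCNN1A and 0.047 for AQP5 and CFTR, and at -0.777 for CFTR and ANO1, which then passed the adjusted threshold.

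With 1 library left out, the log2 difference ran from -0.239 to 0.678 for ATP12A, -1.097 to 0.13 for S100G, -0.293 to 0.528 for SLC34A2, -0.311 to 0.686 for SCNN1G, -0.686 to 0.304 for AQP8, -0.427 to 0.106 for SLC30A2, -0.723 to 0.034 for SCNN1B, -0.377 to 0.502 for AQP3, -0.065 to 0.653 for AQP5, -0.2 to 0.658 for CLCA1 and -0.076 to 0.355 for CLCA4. Values that kept their direction but moved by over 1.5 times ran from 0.293 (without low iCrit replicate 6) to 0.694 for AQP9, 0.078 to 0.645 for ATP13A4, 0.016 to 0.332 for ATP1B1, 0.043 to 0.381 for SLC39A14, 0.17 (without high iCrit replicate 6) to 1.069 (without low iCrit replicate 2) for SLC26A4, and 0.204 (without low iCrit replicate 6) to 0.573 for SLC4A4. With low iCrit replicate 2 left out it was -0.259 for CA12, -0.131 for KCNE3, -0.099 for SCNN1A and -0.356 for ATP1B3, without high iCrit replicate 5 it was -0.112 and without high iCrit replicate 1 -0.322 for CFTR, and without low iCrit replicate 6 it was 0.684 for SLC20A1. For pairs, r ran from -0.055 to 0.691 for TRPV6 and S100G, -0.074 to 0.576 for S100G and STC1, -0.179 to 0.424 for SCNN1A and SCNN1G, -0.07 to 0.244 for CFTR and SLC12A2, -0.01 to 0.35 for AQP3 and SCNN1A and -0.205 to 0.146 for AQP5 and CFTR. It was 0.48 to 0.893 for SCNN1A and SCNN1B, passing the adjusted threshold without low iCrit replicate 3, and 0.601 to 0.825 for CLCA1 and CLCA4, passing it without high iCrit replicate 3 or 5.

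No paired analysis was possible because the labels give the animals no number shared between groups. Members near the floor, such as AQP5, AQP9, ATP12A and SLC34A2, rest on few reads per library. The SE was 0.36 for AQP9 but 0.98 for S100G and 0.95 for SCNN1G, and intervals as wide as theirs leave room for differences of several fold.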
